A study of Glycine max with 4 samples.

Results

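The gene models described here are those whose transcripts were abundant in both green cotyledon stages of soybean and nearly gone in the stages between them. A gene model is an annotated gene as the deposited tables list it. RNA of the cultivar Williams 82 was sequenced at 4 points: cotyledons of mid-maturation embryos (B1), cotyledons of late-maturation embryos (AA1), whole dry seeds, and seedling cotyledons taken 6 days after imbibition. The labels name no mutant, transgene or treatment for any of them. B1 cotyledons were fully green, with a pair weighing 150 to 250 mg, and AA1 cotyledons fully yellow, with a pair weighing 200 to 350 mg. Seed coat and axis were dissected away from both. Dry seeds weighed 100 to 250 mg and carried a small amount of seed coat and axis. Seedlings grew on soil, and their cotyledons were cut off by hand; the labels give no colour for them, so the name green stage rests on the label of B1 and, for the seedling, on general knowledge.

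The members were chosen by the measured levels of these same libraries. A gene model entered when its level was at least 20 scaled CPM in both B1 and seedling, and when the lower of these levels was at least 16-fold above the higher of AA1 and dry seed. Scaled CPM is the read count per unit of sequencing depth (CPM), with library sizes adjusted by TMM, a scaling that assumes that most gene models keep their level. Counts under 3 in AA1 or dry seed were raised to 3 for this ratio. The rule found 108 of 66210 gene models. All 108 passed the 20 scaled CPM minimum by definition, so each is counted below. Since the levels themselves chose the members, everything said of the members' levels is a description, and with 1 library per stage there is no replicate, no test and no p-value. Intervals are 95% intervals for counting error only. They leave out variation between plants and between library preparations, and stage and preparation cannot be told apart.

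The cotyledon changes its work over this period. During mid-maturation it fills with storage protein and oil while its plastids are green and capture light. Late in maturation chlorophyll is broken down and the tissue yellows and dries, and the dry seed holds stored RNA with little metabolism. After germination soybean cotyledons are lifted above the soil, turn green again and photosynthesize while their reserves are used. Transcripts that follow this green, yellow, dry, green course are therefore of interest, but the products of the 108 are not known here. The deposited tables give identifiers without names, and 0 of the 66210 identifiers matched the table of 59048 named genes of assembly Glycine_max_v4.0. No product, pathway or sequence is assigned to any identifier, and markers of chloroplasts, seed coat or axis could not be looked up. Whether the tissues match their labels was therefore not checked against markers.

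Library totals ranged from 16120894 counts in B1 to 38011608 in AA1, with 21512278 in dry seed and 28190429 in seedling. The minimum of 20 scaled CPM corresponds to 187 counts in B1 and 850 in seedling, so green-stage levels are well resolved. A floor of 3 counts is 0.0749 scaled CPM for AA1 and 0.129 for dry seed. Levels are counts per gene model and not per transcript length. A higher value for one gene model than for another therefore does not mean more molecules. The labels describe a preparation that does not mark strand, and soybean has many near-identical gene copies whose reads may have been split or added together, so a single identifier's value is uncertain to that extent.

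Members made up a thin tail of the gene models used in both green stages. In all, 2693 gene models had at least 20 scaled CPM in both B1 and seedling, and the 108 members were 4.01% of them. The median of these 2693 had a ratio of 0.585, meaning that its lower green level was below its higher level in AA1 and dry seed. A ratio of at least 4 was reached by 264, and of at least 8 by 153. Past the rule's own distance, 68 members exceeded 32-fold, 28 exceeded 100-fold and 15 exceeded 200-fold. The members' median ratio was 48.3, with the middle 50% between 24.3 and 103.

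**Figure D1:**
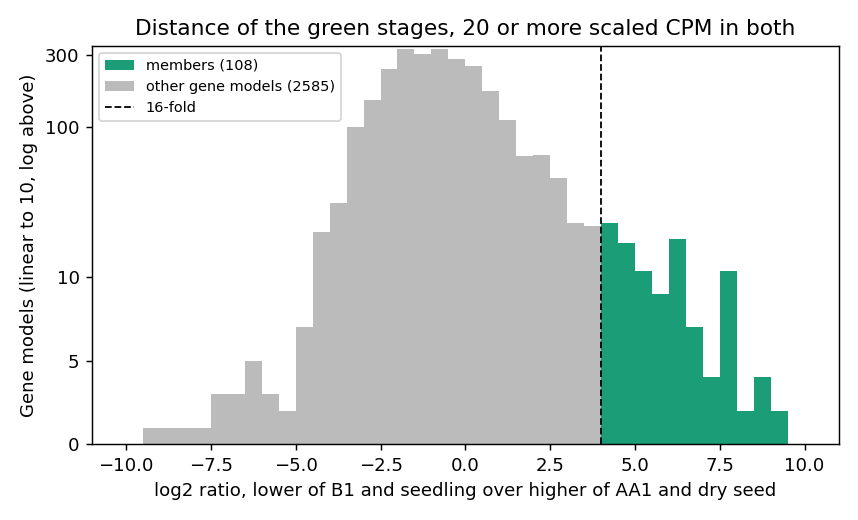
Number of gene models (y axis, linear to 10 and logarithmic above) by the log2 ratio of the lower of B1 and seedling over the higher of AA1 and dry seed (x axis), for the gene models reaching 20 scaled CPM in both green stages. The 108 members, to the right of the dashed 16-fold line, form a tail that reaches 721-fold, while the other 2585 centre below a ratio of 1.

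The limit that decided membership was late maturation more often than dry seed. Both green stages were at least 16-fold above dry seed for 209 of the 2693 gene models, and at least 16-fold above AA1 for 111. Of the 209, 101 failed because their AA1 level was too high, while 3 of the 111 failed because of dry seed. Taken as single pairs of libraries over the 2693, B1 was at least 16-fold above AA1 for 5.12% and above dry seed for 9.73%. The seedling was at least 16-fold above AA1 for 6.02% and above dry seed for 9.65%. Every member passes all 4 of these by the rule, so these percentages say only which condition was hardest to meet. Among the members, AA1 was the higher of the low libraries for 82 and dry seed for 26, counted with the floor. B1 was the lower green library for 77 and seedling for 31.

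The threshold cuts through a continuous distribution. Just inside 16-fold stood Glyma06g03350 at 16.57, with 35.6, 2.15, 0.901 and 37.9 scaled CPM across B1, AA1, dry seed and seedling, then Glyma13g43370 at 16.69 and Glyma08g12750 at 16.83. Just outside stood Glyma20g34750 at 15.67, with 59.0, 1.75, 0.343 and 27.4 scaled CPM in the same order, then Glyma03g27380 at 15.32 and Glyma11g05680 at 15.23. These pairs differ by less than the counting interval of Glyma06g03350, whose B1 level was 16.6-fold above AA1 with an interval of 13.0 to 21.3. On the level criterion, Glyma16g33030 was just inside with 20.19 scaled CPM in its lower green library, and Glyma09g02170 just outside with 19.33. The next inside were Glyma01g04710 at 20.29 and Glyma15g13090 at 20.51, and the next outside Glyma08g41660 at 19.23 and Glyma20g15980 at 19.14.

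Across the 4 stages the members traced a deep trough. Their B1 levels ran from 20.2 to 666 scaled CPM with a median of 49.3. In AA1 the range was 0 to 15.6 with a median of 0.899, and in dry seed 0 to 3.91 with a median of 0.215. In the seedling they ran from 20.6 to 4448 with a median of 95.01. The ranges of the green stages did not overlap those of AA1 and dry seed. The rule's minimum of 20 scaled CPM and its 16-fold distance largely produce this separation. The rule keeps each member's AA1 and dry-seed levels at least 16-fold below its green levels, and so sets an upper limit to the following percentages. The median AA1 level was 1.45% of the same member's B1 level, and the median dry-seed level 0.374% of it. Dry seed had a median of 0.192% of the same member's seedling level.

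**Figure D2:**
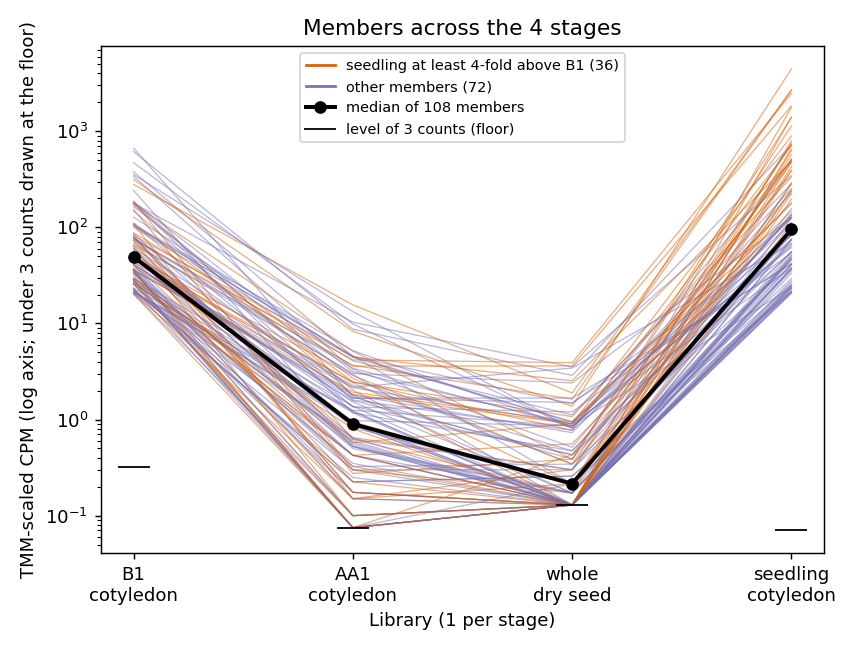
Scaled CPM (log y axis) of each of the 108 members in the 4 libraries (x axis), 1 thin line per member, with the 36 members at least 4-fold higher in seedling than in B1 in orange, the others in purple, the median in black and short bars at the level of 3 counts. Medians are 49.3, 0.899, 0.215 and 95.01 scaled CPM from left to right; lines meet at the floor in AA1 and dry seed because counts under 3 are drawn there.

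The members took a larger share of all reads in the seedling library than in B1. They took 0.566% of B1 counts (exact binomial interval 0.562% to 0.569%), 0.0212% of AA1 counts (0.0208% to 0.0217%), 0.00666% of dry-seed counts (0.00632% to 0.00702%) and 5.72% of seedling counts (5.715% to 5.732%). These shares do not depend on the scaling once the members are fixed, but they do depend on the other transcripts in each library. The members' summed level was 3.9-fold higher in seedling than in B1 with TMM, and 2.91- to 10.1-fold higher with the other scalings used. All 2693 gene models together took 23.85% of B1 counts and 34.63% of seedling counts. In the seedling library 18 members were among the 100 gene models with the most counts and 55 among the 1000. In B1 0 members were among the 100 and 27 among the 1000, and the best rank was 126. The seedling's best rank was 3, held by Glyma05g25810. The rule's minimum level in both green stages by itself favours high ranks in these libraries. Rank counts for the 2693, which met the same minimum, are not given here. The ranks therefore describe the members and do not set them apart from the 2693.

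Dependence on a few gene models was also greater in the seedling. The 10 members with the most counts held 54.6% of the members' seedling counts and 39.5% of their B1 counts. A single one held 11.7% in seedling and 6.84% in B1. The lists of the 10 highest in seedling and in B1 had 3 members in common: Glyma02g47560, Glyma05g25810 and Glyma14g01130. Across the 108, log2(scaled CPM + 1) in B1 and seedling had a Pearson correlation of 0.466 and a Spearman correlation of 0.503. Over the 2693 these were 0.308 and 0.256. Gene models are not independent, both levels grow with transcript length, and both ranges are cut at 20 scaled CPM, so the values describe these libraries only.

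The members split by how the seedling level compared with the B1 level. The rule set no direction for this ratio, but it used both levels, through the lower of them. The shares below therefore describe a set selected on these same values, and how far the selection shaped them was not tested. The seedling was at least 4-fold above B1 for 36 of 108 members (33.3%), against 6.2% of the 2693. It was at least 10-fold above B1 for 14 members (13%), against 1.41%. It lay within 2-fold of B1 for 56 members (51.9%), against 60.7%. It was at least 2-fold below B1 for 6 members (5.56%), against 23.4%, of which 2 were at least 4-fold below, against 10.1%. In total 77 members were higher in seedling than in B1, against 45.7% of the 2693. The median ratio of seedling to B1 was 1.38 for the members and 0.928 for the 2693.

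The direction of this comparison leans on the scaling. With the same 108 members, total counts put 104 above B1 and 52 at least 4-fold above, where 23.8% of the 2693 were. The upper quartile put 56 above B1 and 31 at least 4-fold above, against 4.12%. The members' median ratio was 3.59 with total counts and 1.03 with the upper quartile, while that of the 2693 was 2.41 and 0.693. A scaling multiplies every ratio of seedling to B1 by the same factor, so it cannot change the order of these medians, but it changed which members near equality counted as higher or lower in seedling. Over all gene models with reads in both libraries, the median log2 ratio of seedling over B1 was 0.33 with TMM, 1.71 with total counts and -0.09 with the upper quartile.

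**Figure D3:**
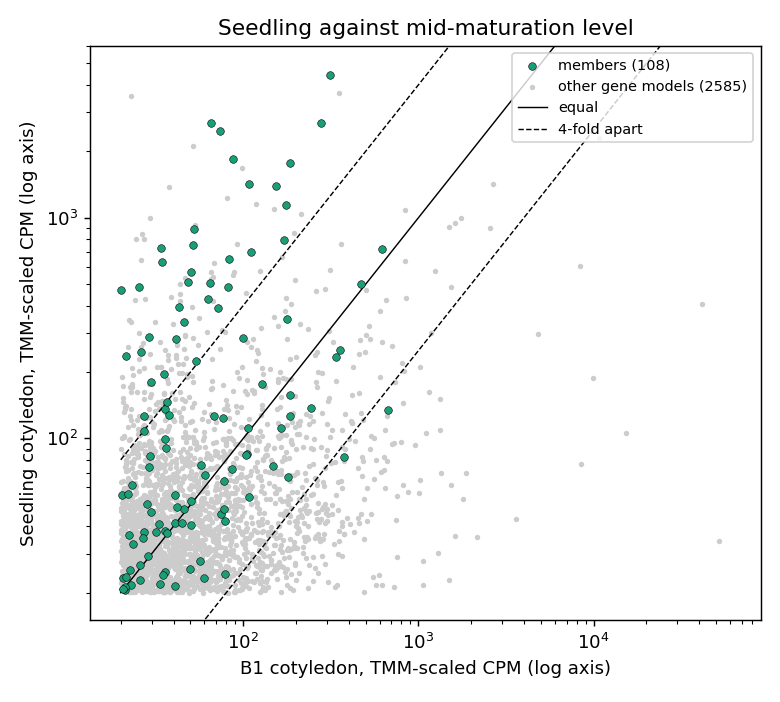
Scaled CPM in seedling (y axis) against B1 (x axis), both on log axes, for the 108 members (green) and the other 2585 gene models reaching 20 scaled CPM in both (grey), with lines at equality and at 4-fold. The 36 members above the upper dashed line reach 4448 scaled CPM in seedling, while 2 members lie below the lower one.

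The members that stood highest in seedling relative to B1 carried most of the members' seedling reads. The 36 gene models at least 4-fold above B1 had medians of 51.9, 0.599, 0.258 and 510 scaled CPM across B1, AA1, dry seed and seedling. They held 83.3% of the members' seedling counts, and 29% of their B1 counts. The 56 within 2-fold had medians of 45.5, 0.961, 0.193 and 45.9 scaled CPM in the same order. They held 12.9% of the members' seedling counts and 52.6% of their B1 counts. The medians of these classes lay within 2-fold of each other in B1, AA1 and dry seed. They stood apart in the seedling, on which the classes were cut. The 10 members between 2- and 4-fold above B1 had medians of 87.2 scaled CPM in seedling and 32.5 in B1. The 4 members between 2- and 4-fold below B1 had medians of 26.2 in seedling and 69.2 in B1, and the 2 at least 4-fold below had medians of 108 in seedling and 522 in B1.

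Several members reached very high read counts in the seedling. At least 1000 scaled CPM was found in 9 members, all with 65.2 to 315 in B1, 0.150 to 15.6 in AA1 and 0.0858 to 3.91 in dry seed. These 9 held 2.99% of all seedling counts and 0.0838% of all B1 counts. Over the 2693, 21 gene models reached that level in seedling, and 12 of these were not members. Glyma05g25810, on chromosome 5 by its identifier, had 315, 8.29, 1.37 and 4448 scaled CPM across B1, AA1, dry seed and seedling. Its seedling level was 14.1-fold above B1 (interval 13.6 to 14.7) and its B1 level was 38.0-fold above AA1 (33.9 to 42.7). Glyma14g01130 had 279, 15.6, 1.89 and 2693 scaled CPM, the highest AA1 level of any member. It was still 17.9-fold higher in B1 than in AA1 (16.4 to 19.6).

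The 2 largest ratios of seedling to B1 belonged to gene models with 65.2 and 73.5 scaled CPM in the embryo, against a median of 49.3. Glyma06g38160 had 65.2, 3.67, 1.63 and 2677 scaled CPM across B1, AA1, dry seed and seedling, a 41.1-fold higher seedling than B1 level (37.9 to 44.6). Glyma12g35050 had 73.5, 4.17, 3.91 and 2474 scaled CPM in the same order, 33.7-fold higher in seedling than in B1 (31.2 to 36.3). Its dry-seed level was the highest of the 108 and differed from its AA1 level by less than counting error, with a ratio of 0.937 (0.718 to 1.22). Both stood close to the entry threshold, with lower green levels 17.8-fold and 17.6-fold above the higher of AA1 and dry seed.

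The 2 members highest in B1 were not among the 6 highest in the seedling. Glyma08g45610 led the members in B1, with 666, 1.72, 0.386 and 134 scaled CPM across B1, AA1, dry seed and seedling. Its seedling level was 0.202 of its B1 level (0.195 to 0.209). Glyma04g11400 had 378, 4.54, 0.944 and 82.5 scaled CPM, and its seedling level was 0.219 of its B1 level (0.209 to 0.229). These are the 2 members at least 4-fold lower in seedling with TMM. With total counts the ratios were 0.524 and 0.568, still below 1. Glyma02g45190, second in B1, had 616, 8.71, 2.88 and 718 scaled CPM, so that its green-stage levels lay within 2-fold. Of the 10 members highest in B1, 5 were higher in seedling than in B1 with TMM, whereas all of the 10 highest in seedling were, by 6.48- to 41.1-fold.

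The 2 deepest troughs belonged to members above 100 scaled CPM in both green stages. Glyma13g22940 had the largest distance, with 108, 0.150, 0.0858 and 1414 scaled CPM across B1, AA1, dry seed and seedling. Its AA1 and dry-seed values rest on 6 and 2 counts. Its B1 level was 721-fold above AA1 (330 to 1970). Without the floor its seedling level was 16467-fold above dry seed (4558 to 135977), and with the floor 10978-fold. Glyma02g47560 had 186, 0.299, 0.172 and 1775 scaled CPM, from 12 counts in AA1 and 4 in dry seed. Its B1 level was 621-fold above AA1 (355 to 1204), and its seedling level 10337-fold above dry seed (4037 to 37938). These were picked as the extremes, so their ratios tend to be too large. The 2 members without any count in AA1 or dry seed, named here after their values were seen, were Glyma02g23860 and Glyma03g26740. The first had 37.8 scaled CPM in seedling and 31.9 in B1, and the second 628 in seedling and 34.3 in B1. With their counts of 0 raised to the floor of 3, their lower green levels were 248-fold and 266-fold above dry seed. The exact counting intervals of B1 over dry seed had lower bounds of 200.4 and 215.3.

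What remained in the low stages was lower in whole dry seed than in AA1 for most members. With counts under 3 raised to 3, dry seed was below AA1 for 82 members, against 59.3% of the 2693. Without a floor, 88 members were lower in dry seed than in AA1 and 18 higher, with 2 at 0 in both. The counting interval of the ratio lay below 1 for 61 members, above 1 for 2 and included 1 for 45. The same counts over the 2693 are not given here, so these say nothing particular to the members. The interval's width also depends on the few reads left in these libraries. Dry seed was at least 4-fold below AA1 for 36 members, against 7.91% of the 2693, and at least 4-fold above for 1, against 1.15%. A 4-fold lower level in dry seed can only be seen where AA1 is at least 4 times the dry-seed floor. That held for 69 members and for 2653 gene models of the background. With the floor, the median ratio of dry seed to AA1 was 0.4 over the 108 and 0.857 over the 2693. The background stood at far higher levels, with medians of 45.3 scaled CPM in dry seed and 47.6 in AA1 over the 2693, so members and background were not compared at matched levels. The rule capped the higher of the low levels and set no order between them. Seed coat and axis were present only in the dry-seed library, and tissue cannot be told apart from stage in this comparison.

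Members differed in how much was left in the low stages. In 59 members both AA1 and dry seed were under 1 scaled CPM. In 33 AA1 was at 1 or more and dry seed under 1, and in 16 both were at 1 or more. In 0 members was dry seed at 1 or more and AA1 under 1. Counts of 0 were found for 4 members in AA1 and 12 in dry seed, and counts under 3 for 6 and 32. Among the 2693, every gene model with such counts was a member. The dry-seed library was also the shallower of the pair.

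**Figure D4:**
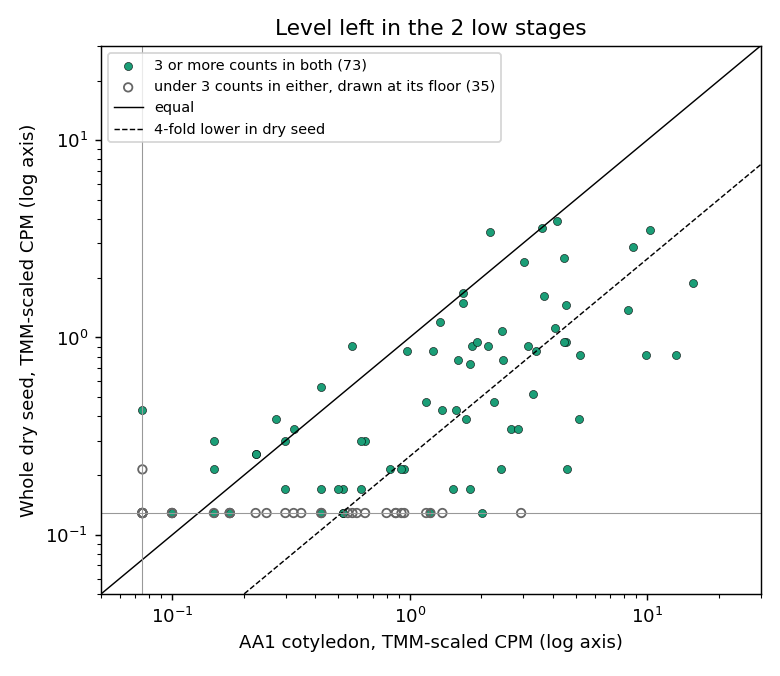
Scaled CPM in whole dry seed (y axis) against AA1 (x axis), log axes, for the 108 members, with lines at equality and at 4-fold lower in dry seed. Of the members, 73 have at least 3 counts in both libraries (filled) and 35 are drawn at a floor (open); most filled points lie below equality, and the highest levels are 3.91 in dry seed and 15.6 in AA1.

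Single members show both kinds of trace. Glyma07g07150 had 77.0, 2.95, 0.0858 and 124 scaled CPM across B1, AA1, dry seed and seedling, and 2 counts in dry seed against 118 in AA1. Its dry-seed level was 0.0292 of its AA1 level without the floor (0.00349 to 0.108), and 0.0437 with it. Glyma03g01630 had 104, 4.59, 0.215 and 85.1 scaled CPM, with a dry-seed level 0.0467 of the AA1 level (0.015 to 0.111). In the other direction, Glyma16g33030 had 20.2, 0.0749, 0.429 and 471 scaled CPM, from 10 counts in dry seed and 3 in AA1, a ratio of 5.73 (1.48 to 32.4). Glyma04g09740 rested on 5 counts in dry seed and 1 in AA1. Its ratio was 2.87 with the floor, next after Glyma16g33030, and 8.60 without it, where the interval (0.962 to 407) included 1. The other member with an interval above 1, named after its values were seen, was Glyma11g10240, with 60.7, 2.17, 3.43 and 68.0 scaled CPM. Its dry-seed level was 1.58-fold its AA1 level (1.15 to 2.17).

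Position was not used by the rule. Identifiers of soybean gene models are built from a chromosome number and an order along it, and both were taken from there. All 108 members carried a chromosome number, and they lay on 19 of the 20 chromosomes. Chromosome 8 held the most, 12, which was 5.56% of its 216 gene models reaching 20 scaled CPM in both green stages. Chromosome 14 had the highest share, with 6 of 91 (6.59%). Chromosome 19 held 0 of 130, chromosome 17 held 2 of 129 and chromosome 20 held 2 of 121. The share over all chromosomes is 4.01%, and with counts this small no chromosome is singled out.

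Among the members, 3 pairs stood side by side. With a limit of 50 in identifier number, 6 members (5.56%) had another member next to them, and they formed 3 pairs. Of the 216 different gene models that flank a member, 15 had at least 20 scaled CPM in both green stages, and 6 of these 15 (40%) were members, against 4.01% of the 2693. These 6 are the 3 pairs counted from both sides, so the 40% rests on 3 pairs. The rate of such neighbours among all 2693 is not given here, and grouping along the chromosome was not tested. Adjacent gene models can be copies of each other and share reads, which was not tested, so a pair may not be independent.

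The pairs differed in how alike their members were. On chromosome 14, Glyma14g35330 had 44.9, 0.499, 0.172 and 41.2 scaled CPM across B1, AA1, dry seed and seedling, and Glyma14g35340 had 184, 1.80, 0.172 and 157. Their seedling levels were 0.919 (0.826 to 1.02) and 0.852 (0.808 to 0.899) of their B1 levels, and these intervals overlap. On chromosome 6, Glyma06g10700 had 85.8, 0.874, 0.0429 and 73.0 scaled CPM, and Glyma06g10710 had 36.0, 0.300, 0.0859 and 99.2. The seedling to B1 ratios of this pair were 0.851 (0.788 to 0.921) and 2.76 (2.46 to 3.09), intervals that do not overlap. On chromosome 8, Glyma08g45600 had 20.6, 0.649, 0.0429 and 23.3 scaled CPM, beside Glyma08g45610 with the highest B1 level of all members. Its seedling to B1 ratio of 1.13 (0.966 to 1.32) was apart from the 0.202 of its neighbour. A difference in this ratio within a pair does not depend on the scaling, since both members share the same libraries.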

How the data were processed

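Per the labels' protocols, polyadenylated RNA was selected on beads, copied with random primers and read from 1 end on an Illumina instrument, with 1 library for each of 4 stages. The deposited tables hold counts of mapped reads per gene model, without normalization, per the file headers. The submitters' processing notes name Bowtie. Build, annotation, counting program and the handling of reads with several matches: not given in the sources used here. The tables had 66210 identifiers each, and 0 rows lacked one.

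TMM factors were computed over the 4 libraries with edgeR 4.0.16 in R 4.3.3: B1 0.581, AA1 1.05, dry seed 1.08 and seedling 1.51. The other scalings were total counts, DESeq2 1.42.0 size factors (ratio and poscounts), upper-quartile scaling, and library totals that leave out the 100 most abundant gene models of any library. Ratio intervals are exact, from the binomial distribution of a pair of counts. Shares have exact Clopper-Pearson intervals. Without replicates neither edgeR nor DESeq2 was used for a test. PCR copies count as separate reads.

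The members and the rules for describing them were chosen with earlier results of these data known. Named gene models are the first of those ranked highest in B1, highest in seedling, largest distance, largest ratio between seedling and B1 and between AA1 and dry seed in either direction, nearest the thresholds, and neighbours. Of longer ranked lists only the first 1 to 3 are printed, since identifiers have no names. Planned keyword lists of products, among them markers of seed coat and axis, were not run, because identifiers matched no name table. On simulated counts of 66210 gene models for the 4 libraries, the rule found 100 of 100 gene models lowered 64-fold in AA1 and dry seed, 0 of 100 lowered 4-fold and 0 of 66010 left unchanged. The simulated libraries shared 1 profile and varied by counting error only, and the lowered gene models averaged at least 100 CPM before lowering. A 16-fold cut returns this outcome by construction, so it checks the calculation only and says nothing about wrong calls in the real libraries.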

Additional observations from a re-analysis of the deposited data

How the results depend on the processing

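The number of members was 88 to 153 under DESeq2 size factors (ratio 110, poscounts 95), the upper quartile, totals without the 100 most abundant, floors of 1 or 10 counts, thinning to the B1 total, an 8-fold distance and the interval rule. Total counts gave 59 members, 48 of them among the 108, which hold 2.89% of seedling counts, and of which 18 were at least 4-fold higher in seedling than in B1 and 52 lower in dry seed than in AA1. A minimum of 10 scaled CPM gave 189 members with 7.07% of seedling counts and a seedling median of 55.6 scaled CPM, of which 60 were at least 4-fold higher in seedling and 130 lower in dry seed. A minimum of 50 gave 46 members with 4.61% of seedling counts and a median of 268, with 20 higher in seedling and 42 lower in dry seed. A distance of 32-fold gave 68 members with 3.44% of seedling counts, 45 of them lower in dry seed. The share of seedling counts also moved to 5.94% (DESeq2 ratio), 5.55% (poscounts), 5.84% (upper quartile), 5.97% (totals without the 100 most abundant), 5.97% (thinned), 7.37% (8-fold) and 4.48% (interval rule), against 5.72%. A stricter or looser rule changes these values by its own construction. Under another scaling, a share of library counts moves only because the set of members changes. The cause of the other changes was not tested. With a floor, 82 members were lower in dry seed than in AA1, and with floors of 1 and 10 counts 88 and 66 were. Neighbour limits of 20 and 100 gave 6 and 8 members with a neighbour. Keeping the 108 members under every scaling was added after the data were seen. No paired analysis was possible because each stage has 1 library. Depth limits the low stages, where 6 members in AA1 and 32 in dry seed have under 3 counts.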

Other observations

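Gene models flanking a member were looked at after the data were seen. Of the 128 flanking gene models that are not members and reach 1 scaled CPM in some library, 17 (13.3%) had both green stages at least 4-fold above AA1 and dry seed. Over all 33250 such gene models that are not members, 2300 (6.92%) did. Whether copies side by side share reads was not tested. The flanking gene models printed next have the highest seedling levels of the 17 and were picked after their values were seen. The rest of the 17 had 0.682 to 25.6 scaled CPM in seedling. On chromosome 12 the member Glyma12g29100, with 35.4, 0, 0.129 and 196 scaled CPM across B1, AA1, dry seed and seedling, lay between Glyma12g29090, with 12.8, 0.0749, 0.129 and 212, and Glyma12g29110, with 10.2, 0.599, 1.20 and 127. On chromosome 15 the neighbour Glyma15g43110 had 4.70, 0.025, 0 and 81.4 scaled CPM, beside the member Glyma15g43100 with 53.5, 0.225, 0.0859 and 223.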
